A study of Homo sapiens with 8 samples.

Results

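The 30 genes described here make cholesterol, sense it or move it. They were listed by name, with no measured value in the rule, although earlier results of these data were known. They comprise 18 enzymes of cholesterol synthesis, 5 regulators of the sterol-sensing SREBP system, and 7 genes of sterol transport, uptake, efflux and storage. All 30 were found among the 20263 genes of the deposited table. PANC-1, an established human line, was derived from a ductal carcinoma of the pancreas. The cells were treated for 24 h with 10 μM eupalinolide B (EB), a compound extracted from the plant Eupatorium lindleyanum, or with the solvent dimethyl sulfoxide (DMSO) alone. RNA was sequenced from 4 biological replicates per group, and both groups are the same unmodified line, so the results describe 1 line at 1 dose and 1 time. Columns headed C were read as DMSO and those headed H as EB, the one treated group of the experiment. Levels are TPM, a transcript abundance corrected for gene length and scaled to the same total in every library. Of the 30 genes, 29 passed the filter on low values (1 TPM or more in 4 or more of the 8 libraries) and were tested with limma, among 11725 genes in all. STARD4, which encodes a cytosolic carrier of cholesterol, was not tested. Its TPM lay between 0 and 0.130 in the DMSO libraries and between 0 and 0.0169 in the EB libraries.

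Cholesterol is built from acetyl-CoA in the cytosol and endoplasmic reticulum. The mevalonate steps make isoprenoid units, which are joined to farnesyl diphosphate, then to squalene, and closed to lanosterol, the first sterol. A series of demethylation, reduction and isomerization steps turns lanosterol into cholesterol. The transcription factors SREBP-1 and SREBP-2 switch on these enzymes when sterol is scarce. Each is made as a membrane precursor that SCAP escorts to the Golgi for cleavage, and the INSIG proteins hold SCAP back in the endoplasmic reticulum when sterol is plentiful. Oxysterols from a sterol surplus activate the LXR receptors, which raise the export pumps ABCA1 and ABCG1. INSIG1, LSS and many other enzymes are known SREBP targets, whereas ABCA1, ABCG1, MYLIP and SREBF1 are known LXR targets.

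The promoters of 5 of these genes are shown to set genes that differed with EB in opposite directions beside each other. INSIG1, SREBF2 and LSS were lower with EB and EBP was higher. MSMO1, which was not called, is shown for its match to the sterol response element (SRE), which SREBF2 also holds and the other 3 windows do not. The sequences are RefSeq promoter windows on GRCh38.p14, cut to the bases upstream of the annotated gene and read 5′ to 3′ on the gene's strand. Capitals mark matches on either strand to 3 motifs, the SRE core TCACNCCA, the NF-Y box CCAAT and the Sp1 box GGGCGG.
INSIG1 (chr7:155297628-155297775, plus strand): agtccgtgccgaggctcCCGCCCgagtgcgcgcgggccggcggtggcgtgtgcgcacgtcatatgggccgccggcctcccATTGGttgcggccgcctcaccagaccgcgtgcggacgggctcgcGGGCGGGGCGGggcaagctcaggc
SREBF2 (chr22:41832855-41833104, plus strand): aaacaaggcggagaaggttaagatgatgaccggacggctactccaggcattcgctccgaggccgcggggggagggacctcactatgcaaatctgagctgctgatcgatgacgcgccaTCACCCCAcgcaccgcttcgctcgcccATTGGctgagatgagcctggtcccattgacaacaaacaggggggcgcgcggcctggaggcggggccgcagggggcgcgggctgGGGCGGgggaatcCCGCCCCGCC
LSS (chr21:46228825-46229024, minus strand): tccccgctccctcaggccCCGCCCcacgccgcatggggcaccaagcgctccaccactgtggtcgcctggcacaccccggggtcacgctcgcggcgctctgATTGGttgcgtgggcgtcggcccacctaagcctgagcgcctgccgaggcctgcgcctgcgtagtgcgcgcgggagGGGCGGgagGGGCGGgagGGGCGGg
EBP (chrX:48521558-48521798, plus strand): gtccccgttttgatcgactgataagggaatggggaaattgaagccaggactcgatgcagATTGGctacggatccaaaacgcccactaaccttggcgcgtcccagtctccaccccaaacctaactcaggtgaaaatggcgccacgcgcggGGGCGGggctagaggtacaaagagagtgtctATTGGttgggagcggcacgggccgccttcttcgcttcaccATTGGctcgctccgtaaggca
MSMO1 (chr4:165327419-165327666, plus strand): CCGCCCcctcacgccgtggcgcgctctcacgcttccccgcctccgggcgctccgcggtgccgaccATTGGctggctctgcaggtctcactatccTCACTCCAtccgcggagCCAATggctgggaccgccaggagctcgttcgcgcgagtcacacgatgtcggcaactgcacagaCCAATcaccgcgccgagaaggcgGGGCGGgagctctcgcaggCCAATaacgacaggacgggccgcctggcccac
All 250 bases of the SREBF2 window also lie in exons of a noncoding gene on the opposite strand, SREBF2-AS1. The SRE core begins at position -133 from the RefSeq start in SREBF2 and at -156 in MSMO1, and the only other match among the genes was at -195 in MVK. Promoter windows, from 250 bases before to 50 after the start, were found for 26 of the 30 genes. The SRE core was present in 3 of the 26 windows (11.5%), against 3.93% of 27305 promoters. Those promoters were the first listed window of each gene symbol and were not matched to these genes. The NF-Y box was present in 18 of them (69.2%, against 35.7%), and the Sp1 box in 24 (92.3%, against 44.6%). All 4 higher genes and all 7 lower genes with a window held an Sp1 box. An NF-Y box stood in 2 of the 4 higher, 5 of the 7 lower and 10 of the 14 genes not called. The SRE core occurred in 0, 1 and 2 of them. A match describes these letters only and shows neither binding nor its absence.

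Before the single genes, the libraries themselves differed. DMSO replicate 4 stood apart, with 39.0% of its TPM in the 13 mitochondrially encoded genes, against 17.01% to 21.1% in the other DMSO libraries and 11.6% to 20.3% in the EB libraries. EB replicate 4 was the highest of its own group, at 20.3%. TPM have a fixed sum, so a larger mitochondrial share leaves less for nuclear genes. Values without DMSO replicate 4 are given where they change a call. Fold changes also moved with transcript length across all genes. Their median was 0.41 in the shortest of 10 equal bins of genes (207 to 1219 nucleotides) and -0.54 in the longest bin (7315 to 34626 nucleotides), on the log2 scale. The part of either in the results was not tested, but each gene was also fitted without DMSO replicate 4 and with a trend on length and GC content taken out. Below, the length trend removed means this joint removal of length and GC content, and no fit took out length alone. The duct keratins KRT8, KRT18 and KRT19 were expressed at summed TPM of 991 to 1454 with DMSO and 3208 to 3592 with EB, while KRT7 stayed below 1. Defining markers of acinar and islet cells were at or near 0 in every library. Summed leukocyte markers reached at most 1.37 and endothelial markers at most 0.305. Of 4 fibroblast markers, COL1A2 made up most of a sum of 64.0 to 91.8 with DMSO and 38.6 to 50.4 with EB, with DCN and LUM at 0.

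Genes of the pathway differed with EB in both directions. At a limma adjusted p under 0.05, 4 of the 29 genes tested were higher with EB (13.8%), where 15.2% of all genes were higher. A further 8 were lower (27.6%), where 25.1% of all genes were lower, and 17 were not called. Both shares are near those of all genes, so the number of calls is no result about the pathway. What follows concerns which genes moved. The higher genes were PMVK, CYP51A1, HSD17B7 and EBP, which are all enzymes. Of the lower genes only LSS is a synthesis enzyme, and the others were the regulators INSIG1, SREBF1 and SREBF2 and the transport genes NPC2, ABCA1, ABCG1 and MYLIP. ABCA1 is counted among them although it passed the filter only through its DMSO libraries. The 4 EB values all lay above the 4 DMSO values in 5 genes (16.6% of all genes) and all below in 8 genes (20.3% of all genes). No gene of the 29 reached an absolute log2 fold change above 1.5 with an unadjusted limma p under 0.05, thresholds that 2.08% of all genes passed in either direction. At an unadjusted limma p under 0.05 alone, 13 of the 29 passed (44.8%), against 50% of all genes. Without DMSO replicate 4, 3 of the 29 were called higher and 12 lower, where 15.6% and 37.0% of all genes were. The median log2 fold change was -0.32 over these genes and -0.11 over all genes tested.

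**Figure D1:**
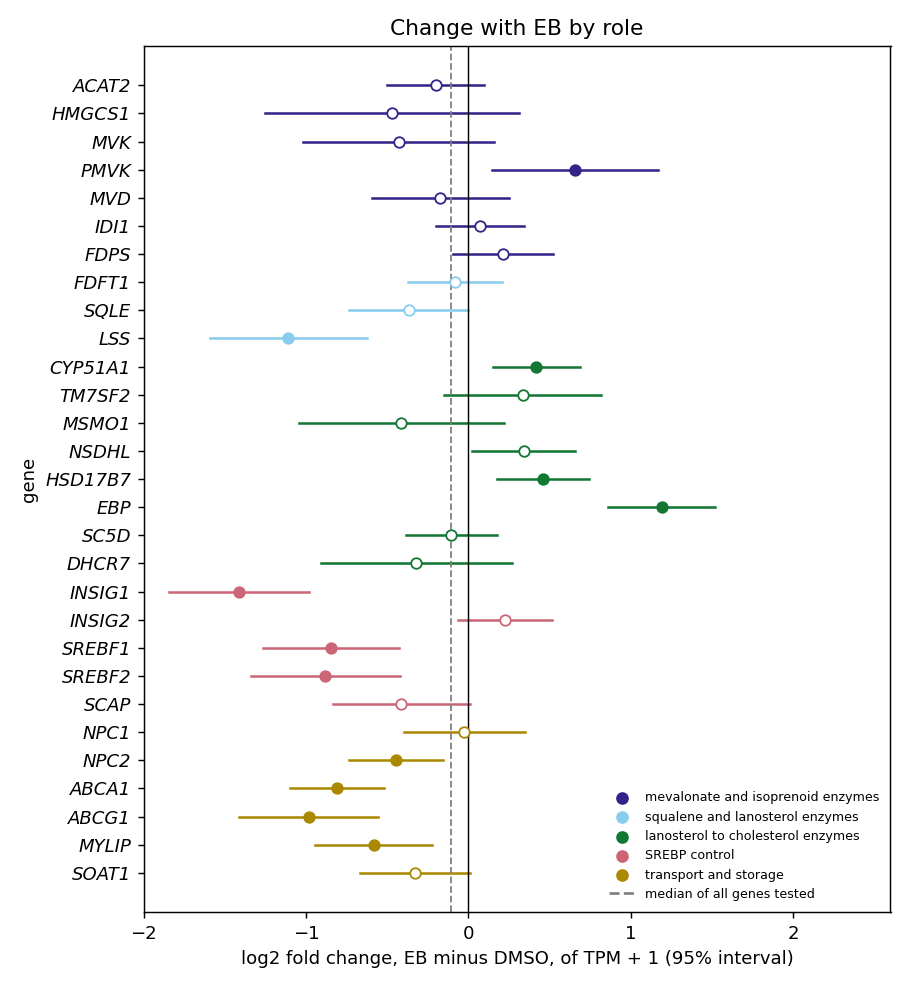
Log2 fold change of TPM + 1 (EB minus DMSO, horizontal axis) for the 29 genes tested, colored by role and listed in pathway order. Bars are 95% limma intervals, filled points have an adjusted p under 0.05, and the dashed line is the median of all genes tested (-0.11), with EBP farthest to the right at 1.19 and INSIG1 farthest to the left at -1.41.

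The mevalonate and isoprenoid enzymes, the first stretch of the pathway, were mostly not called. Of 7 enzymes, 1 was higher, 0 were lower and 6 were not called, where 15.2% of all genes were higher and 25.1% lower. The median log2 fold change of the 7 was -0.17. The one called was PMVK, which phosphorylates phosphomevalonate. PMVK read 57.1, 48.9, 48.4 and 29.4 TPM in DMSO replicates 1 to 4, and 86.7, 63.3, 86.1 and 53.6 TPM in EB replicates 1 to 4. The groups overlapped, since EB replicate 4 lay below the highest DMSO library. The log2 fold change was 0.66 ± 0.23 (SE), with a limma adjusted p of 0.0448. This call was lost without DMSO replicate 4 (0.46, adjusted p = 0.0634) and with the length trend removed (0.34, adjusted p = 0.0664), and it held in 8 of 17 alternative settings.

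FDPS, which makes farnesyl diphosphate, was the most abundant enzyme of this stretch. Its TPM were 173, 174, 170.0 and 125 with DMSO and 191, 179, 193 and 175 with EB. Every EB library lay above every DMSO library, by the smallest margin against DMSO replicate 2, and the log2 fold change of 0.22 had an adjusted p of 0.236. MVD, which decarboxylates mevalonate diphosphate, averaged 81.7 ± 18.4 TPM with DMSO and 71.2 ± 8.98 with EB (SD, n = 4 each), with overlapping groups. It was called lower without DMSO replicate 4 (-0.35, adjusted p = 0.0389) and with the length trend removed (-0.31, adjusted p = 0.0157). ACAT2, the thiolase that makes acetoacetyl-CoA, averaged 45.6 ± 4.53 TPM with DMSO and 39.5 ± 4.74 with EB, with a limma adjusted p of 0.250. With the length trend removed ACAT2 was called lower (-0.40, adjusted p = 0.00438). Its exons share 17.2% of their bases with TCP1 on the opposite strand, a gene at a mean TPM of 229, and how reads were assigned by strand is not given in the sources used here. HMGCS1, which makes HMG-CoA, averaged 11.7 ± 1.62 and 9.11 ± 4.46 TPM, and EB replicate 4 was low at 2.86. MVK, the mevalonate kinase, averaged 28.3 ± 7.61 and 21.02 ± 6.68 TPM. IDI1, which isomerizes isopentenyl diphosphate, averaged 27.6 ± 1.28 and 29.1 ± 3.22 TPM. None of the last 3 was called in the main fit, on TPM as deposited. With mitochondrial genes removed, 3 of the 7 enzymes were called lower and 1 higher, where 41.3% of all genes were lower. The lower ones were ACAT2 (-0.39, limma adjusted p = 0.00876), MVD (-0.36, adjusted p = 0.0292) and MVK (-0.61, adjusted p = 0.0357).

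The middle stretch, from squalene to lanosterol, held the one enzyme called lower in the main fit. LSS (ENSG00000160285, chr21:46188141-46228824 on hg38), lanosterol synthase, folds oxidosqualene into the first sterol. It read 105, 93.4, 98.5 and 52.0 TPM with DMSO and 41.4, 41.2, 39.4 and 32.9 TPM with EB. DMSO replicate 4 was the lowest of its group and still above all EB libraries. Its TPM fell from 87.3 ± 24.1 to 38.7 ± 3.997 (SD, n = 4 each), 2.25-fold lower, with a log2 fold change of -1.11 ± 0.22 (SE) and a limma adjusted p of 0.00365. Without DMSO replicate 4 the change was -1.34, and with the length trend removed -0.77, and the call held in all 17 alternatives. The enzymes just before it were not called in the main fit. FDFT1, squalene synthase, averaged 84.9 ± 8.54 TPM with DMSO and 80.1 ± 8.53 with EB, a log2 difference of -0.08 with a 95% interval of -0.37 to 0.21. SQLE, squalene epoxidase, averaged 21.6 ± 4.75 and 16.3 ± 1.46 TPM, with a log2 difference of -0.37 (interval -0.73 to 0.00065, adjusted p = 0.101). SQLE was called lower with mitochondrial genes removed (-0.55, limma adjusted p = 0.0178) and without DMSO replicate 1 (-0.48, adjusted p = 0.0440). The same held with the replicate number as a block (adjusted p = 0.0468).

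The steps from lanosterol to cholesterol held 3 of the 4 enzymes that rose. Of 8 enzymes, 3 were higher, 0 were lower and 5 were not called, where 15.2% of all genes were higher and 25.1% lower. The median log2 fold change of the 8 was 0.34. EBP (ENSG00000147155, chrX:48521799-48528716 on hg38), the isomerase that shifts the sterol ring's double bond, rose most. It read 97.4, 82.9, 83.1 and 67.7 TPM with DMSO and 204, 165, 213 and 177 TPM with EB. The lowest EB library was above the highest DMSO library by a wide margin. Its mean rose 2.29-fold, from 82.8 ± 12.1 to 190 ± 22.3 TPM (SD, n = 4 each), with a log2 fold change of 1.19 ± 0.15 (SE) and a limma adjusted p of 0.000422. The change was 1.10 without DMSO replicate 4 and 0.88 with the length trend removed, with the call kept in all 17 alternatives. The annotation places another protein-coding gene over 36.4% of the exon bases of EBP on the same strand. That gene was not found by name among the deposited values, so how reads there were counted cannot be seen.

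CYP51A1 and HSD17B7 rose less. CYP51A1 removes the methyl group at carbon 14 of lanosterol. It read 41.1, 39.4, 37.6 and 33.0 TPM with DMSO and 55.6, 50.6, 48.8 and 47.8 TPM with EB. The groups did not overlap, and the log2 fold change was 0.42 ± 0.12 (SE), with a limma adjusted p of 0.0209. HSD17B7, a sterol ketone reductase, read 26.9, 27.9, 23.4 and 21.2 TPM with DMSO and 32.5, 32.9, 36.8 and 35.3 TPM with EB. These groups also stood apart, with a log2 fold change of 0.46 ± 0.13 (SE) and a limma adjusted p of 0.0178. Each call held in 15 of 17 alternatives. Without DMSO replicate 3 the adjusted p was 0.0532 for both. Leaving out EB replicate 1 gave 0.0658 for CYP51A1, and leaving out EB replicate 3 gave 0.0560 for HSD17B7. The exons of CYP51A1 share 68.2% and 67.8% of their bases with a pair of other protein-coding genes annotated on the same strand. Annotated pseudogenes are named after CYP51A1 (3), HSD17B7 (2), FDPS (8) and IDI1 (3). None of these pseudogenes and overlapping genes was found by name among the deposited values. How reads shared with such genes or near copies were counted cannot be seen, so these levels are less certain.

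NSDHL, which works with HSD17B7 in removing the methyl groups at carbon 4, read 52.0, 50.2, 51.1 and 36.4 TPM with DMSO and 62.3, 63.4, 57.2 and 56.4 TPM with EB. Its groups did not overlap, but the limma adjusted p of 0.0796 missed the threshold at a log2 fold change of 0.34. With the length trend removed NSDHL was called higher (0.20, adjusted p = 0.0463). TM7SF2, a sterol reductase, averaged 48.7 ± 14.6 TPM with DMSO and 59.3 ± 2.76 with EB, with DMSO replicate 4 low at 28.5. DHCR7, which reduces 7-dehydrocholesterol to cholesterol, averaged 66.9 ± 20.1 and 52.3 ± 13.4 TPM. DMSO replicate 4 was low here too, at 36.9, and without it DHCR7 was called lower (-0.58, adjusted p = 0.0259). MSMO1, a methyl sterol oxidase, averaged 9.48 ± 1.16 and 7.37 ± 2.98 TPM, with EB replicate 2 low at 2.97. SC5D, a sterol desaturase, averaged 5.25 ± 0.591 and 4.81 ± 0.526 TPM. Its log2 fold change of -0.11 turned to 0.36 with the length trend removed (adjusted p = 0.0270), and it turned positive under median-ratio scaling (0.0062) and quantile normalization (0.21) too.

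**Figure D2:**
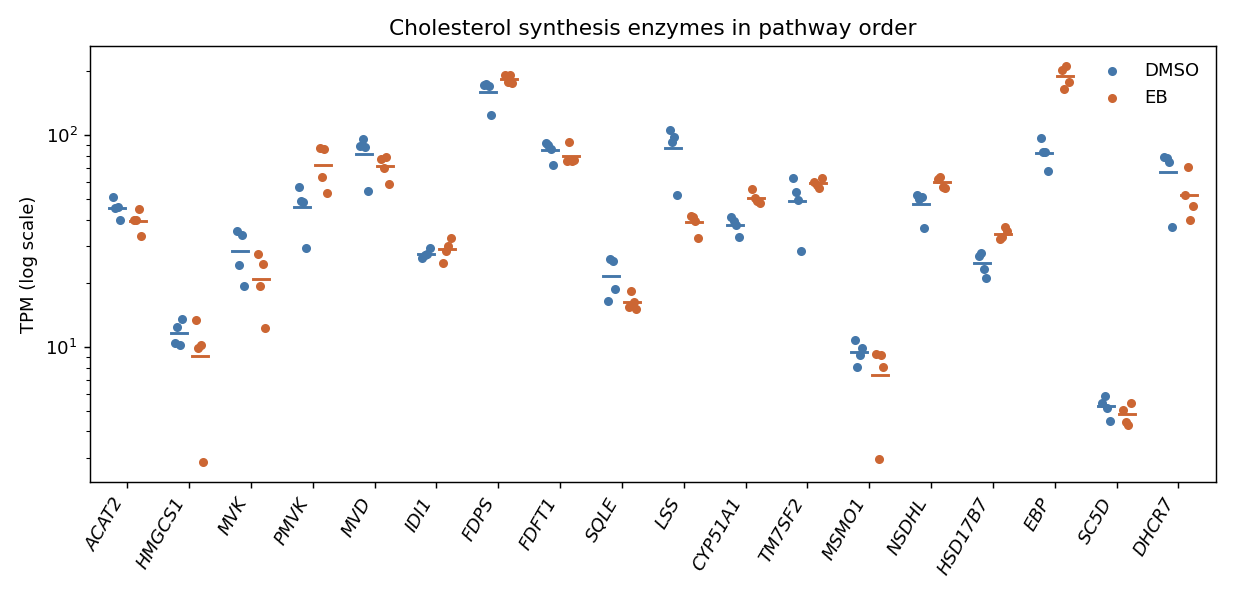
TPM of the 18 synthesis enzymes in pathway order (vertical axis, log scale), with each point 1 library and each bar the mean of 4, DMSO in blue and EB in orange. The EB points lie below the DMSO points in LSS and above them in EBP, CYP51A1, HSD17B7, NSDHL and FDPS, and overlap in the other 12 enzymes.

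Side by side within a library, the opposite changes of EBP and LSS shifted their ratio. EBP over LSS in TPM was 0.924, 0.888, 0.844 and 1.303 with DMSO and 4.91, 4.004, 5.39 and 5.39 with EB. The mean rose from 0.990 ± 0.211 to 4.93 ± 0.655 (SD, n = 4 each). The pair was chosen with the opposite changes of both genes known, so the ratio describes them and its permutation p is not given as a test. The library's mitochondrial share cancels in it, but transcript length does not, since EBP is short and LSS long. With the length trend removed, the shift between EBP and LSS fitted on the log2 scale was 3.14-fold, against 4.92-fold as deposited. Summed over the 8 enzymes after lanosterol, TPM averaged 323 ± 59.3 with DMSO and 458 ± 18.2 with EB. Most of that difference came from EBP, and the other 7 enzymes summed to 240.4 ± 48.0 and 269 ± 14.3 TPM, with overlapping groups. The sum over the 3 enzymes from squalene to lanosterol was 194 ± 33.8 and 135 ± 12.1, with overlapping groups. Without LSS, the other 2 summed to 106.6 ± 10.6 and 96.4 ± 9.88 TPM, also with overlap. For all 18 enzymes the sums were 918 ± 153 and 1021 ± 64.6, with groups that overlapped between 933 and 1030 TPM.

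The mRNAs of INSIG1 and of both SREBP precursors were lower with EB, and SCAP and INSIG2 were not called. Of the 5, 0 were higher, 3 were lower and 2 were not called, where 15.2% of all genes were higher and 25.1% lower. Over the 5 genes the median log2 fold change was -0.84. INSIG1 (ENSG00000186480, chr7:155297776-155310235 on hg38), the sterol-responsive retention protein for SCAP, had the lowest log2 fold change of the 29 genes at a pseudocount of 1. With a pseudocount of 0.1, the low gene ABCA1 (-1.77) was lower than INSIG1 (-1.48). INSIG1 read 33.3, 36.8, 41.4 and 26.2 TPM with DMSO and 12.2, 15.6, 13.03 and 8.75 TPM with EB. All EB libraries lay well below the lowest DMSO library. Its mean fell 2.78-fold, from 34.4 ± 6.43 to 12.4 ± 2.83 TPM (SD, n = 4 each), with a log2 fold change of -1.41 ± 0.19 (SE) and a limma adjusted p of 0.000717. The lowest and highest log2 fold changes over 17 alternatives were -1.60 and -1.27, and all of them kept the call.

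INSIG2 is the related protein that is less dependent on SREBP. It read 3.74, 4.39, 3.64 and 4.20 TPM with DMSO and 5.23, 5.13, 5.25 and 3.83 TPM with EB. Only EB replicate 4 fell within the range of the DMSO libraries, and the log2 difference of 0.23 (95% interval -0.06 to 0.52) had a limma adjusted p of 0.189. With the length trend removed it was called higher (0.40, adjusted p = 0.0144). The ratio of INSIG1 to INSIG2 in TPM fell from 8.73 ± 2.11 to 2.53 ± 0.348 (SD, n = 4 each), with no overlap.

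The genes of both SREBP precursors fell by similar amounts. SREBF1 (ENSG00000072310, chr17:17810399-17837002), which encodes SREBP-1, read 198, 217, 216 and 123 TPM with DMSO and 108, 107, 102 and 91.8 TPM with EB. SREBF2 (ENSG00000198911, chr22:41833105-41907306), which encodes SREBP-2, read 71.7, 68.7, 74.1 and 40.4 TPM with DMSO and 37.5, 38.2, 29.5 and 28.6 TPM with EB. In both genes DMSO replicate 4 was the lowest of its group and the groups did not overlap. The log2 fold changes were -0.84 ± 0.19 and -0.88 ± 0.21 (SE), with limma adjusted p of 0.00685 and 0.00852. Without DMSO replicate 4 they were -1.04 and -1.08, and with the length trend removed -0.49 and -0.51, called in all 17 alternatives. The ratio of SREBF1 to SREBF2 was 2.97 ± 0.168 with DMSO and 3.09 ± 0.300 with EB, and the groups overlapped (exact two-sided permutation p = 0.571). SCAP, the escort of both precursors, averaged 46.9 ± 10.9 and 34.3 ± 3.95 TPM, with DMSO replicate 4 at 30.7 within the EB range. SCAP was not called with all libraries (-0.41, adjusted p = 0.107) and was called lower without that one (-0.60, adjusted p = 0.00260). Summed over the 5 regulators, TPM averaged 338 ± 76.7 with DMSO and 187 ± 18.5 with EB.

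Among the transport and storage genes, 4 of the 6 tested were lower with EB, 0 were higher and 2 were not called. Of all genes, 25.1% were lower and 15.2% higher, and counts within so small a group were not tested. The median log2 fold change of the 6 was -0.51. The export pumps and MYLIP, the known LXR targets, were all lower and all low in TPM. ABCG1, an export pump that passes sterol to lipoprotein particles, read 4.30, 5.66, 4.11 and 2.39 TPM with DMSO and 1.64, 1.41, 1.66 and 1.36 TPM with EB. The groups did not overlap, at a log2 fold change of -0.98 ± 0.19 (SE) and a limma adjusted p of 0.00364, and the call held in all 16 alternatives that tested it. ABCA1, which loads cholesterol onto apolipoproteins, read 1.57, 1.46, 1.19 and 1.10 TPM with DMSO and 0.217, 0.471, 0.200 and 0.444 TPM with EB. It reached 1 TPM in the 4 DMSO libraries only, so it entered the test through the group in which it was higher. The log2 fold change of ABCA1 was -0.81 ± 0.13 (SE) with a limma adjusted p of 0.00156, given as a description only because of that entry. On this scale the pseudocount shrinks the change of so low a gene, and the means differed 3.99-fold. With 10408 nucleotides it is the longest transcript of the set, and with the length trend removed it was not called (-0.25, adjusted p = 0.146).

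MYLIP, a ubiquitin ligase that marks lipoprotein receptors for degradation, read 2.33, 1.55, 2.82 and 1.97 TPM with DMSO and 1.47, 1.12, 1.09 and 0.753 TPM with EB. Its highest EB library lay just below its lowest DMSO library. The log2 fold change was -0.58 ± 0.16 (SE), with a limma adjusted p of 0.0176, and the call was lost without DMSO replicate 3 (adjusted p = 0.0540) and under quantile normalization (adjusted p = 0.0922).

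The lysosomal exit route for cholesterol needs a soluble and a membrane protein. NPC2, the soluble one, was the most abundant of the 30 genes in the DMSO libraries. It read 303, 303, 310.1 and 238 TPM with DMSO and 203, 211, 231 and 198 TPM with EB. The lowest DMSO library lay just above the highest EB library, with a log2 fold change of -0.44 ± 0.13 (SE) and a limma adjusted p of 0.0217. The adjusted p rose to between 0.0557 and 0.0653 when DMSO replicate 1, 2 or 3 or EB replicate 1 or 4 was left out. At 821 nucleotides, NPC2 is the shortest transcript of the set, and its fall was larger with the length trend removed (-0.78). NPC1, the membrane protein, averaged 20.3 ± 2.81 TPM with DMSO and 20.1 ± 4.02 with EB, a log2 difference of -0.02 with a 95% interval of -0.39 to 0.35. NPC1 was called higher with the length trend removed (0.30, adjusted p = 0.0446). The ratio of NPC2 to NPC1 was 14.2 ± 0.689 and 10.9 ± 2.59, with overlapping groups (exact two-sided permutation p = 0.0571). SOAT1, which esterifies cholesterol for storage, averaged 15.4 ± 2.75 and 11.97 ± 1.28 TPM, with an adjusted p of 0.108. SOAT1 was called lower without DMSO replicate 4 (-0.44, adjusted p = 0.0129), and its sign turned with the length trend removed (0.14).

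**Figure D3:**
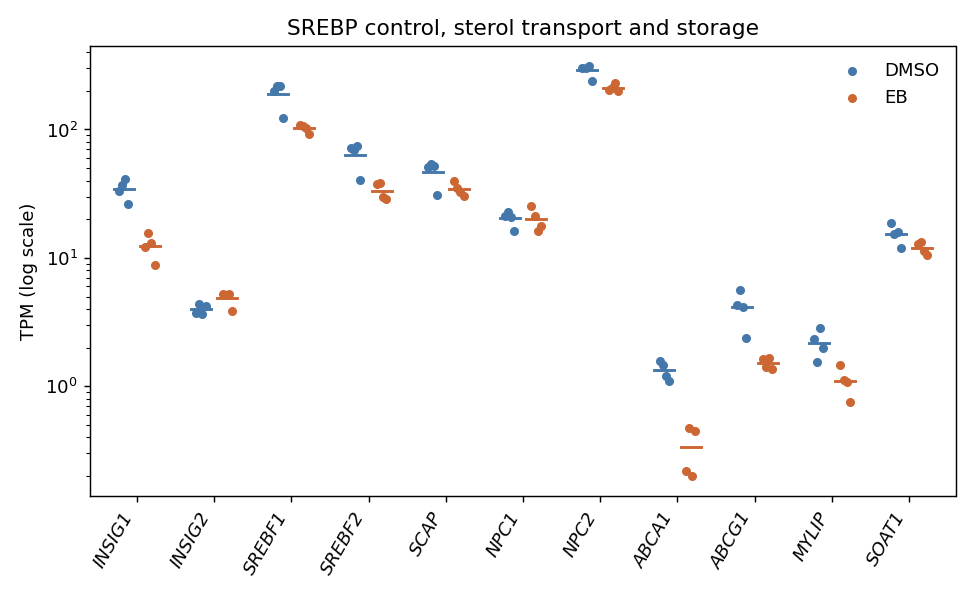
TPM of the 5 regulators and 6 of the 7 transport and storage genes (vertical axis, log scale), with each point 1 library and each bar the mean of 4, DMSO in blue and EB in orange. STARD4 is left off because 4 of its 8 values are 0, which a log axis cannot show, and the EB points lie wholly below the DMSO points in INSIG1, SREBF1, SREBF2, NPC2, ABCA1, ABCG1 and MYLIP.

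Transcript length separates some of these genes. EBP (1125 nucleotides) and PMVK (1002) are short, among genes that were mostly higher, whereas LSS (4886), SREBF1 (4901) and SREBF2 (5237) are long, among genes that were mostly lower. INSIG1 (2908), ABCG1 (2976) and MYLIP (3072) lie in a length bin whose median log2 fold change was -0.10. With the trends on length and GC content taken out together, 10 of the 12 called genes kept their call, and PMVK and ABCA1 lost it. All 12 kept their direction.

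**Figure D4:**
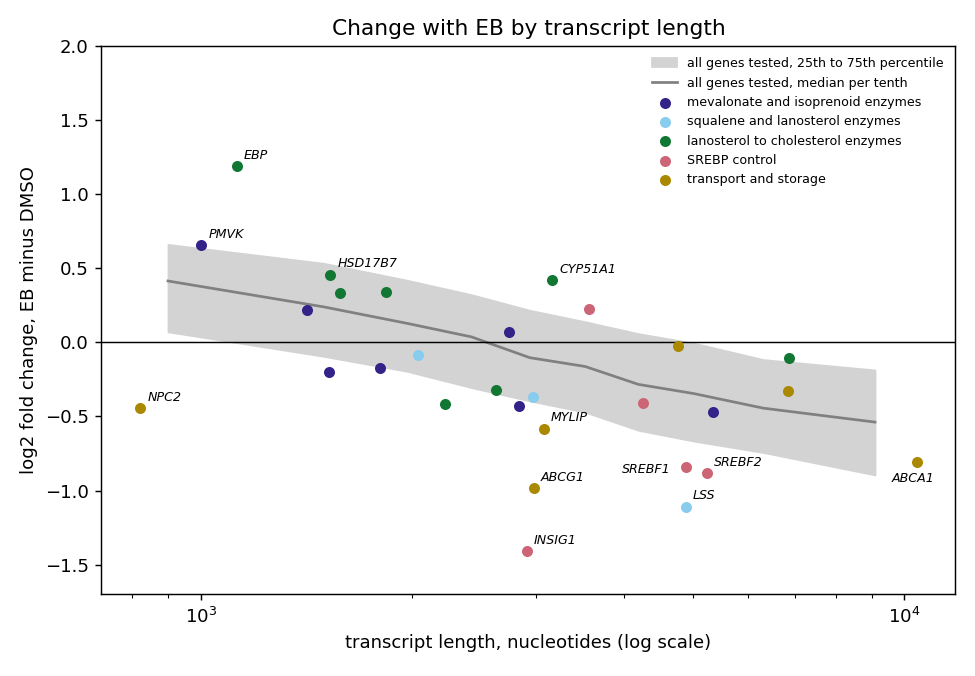
Log2 fold change (EB minus DMSO, vertical axis) against transcript length in nucleotides (horizontal axis, log scale) for the 29 genes, colored by role, with called genes named. The grey line and band give the median and the 25th to 75th percentile of all genes tested in each of 10 length bins, from 0.41 in the shortest to -0.54 in the longest, and EBP lies above the band, while NPC2, INSIG1, ABCG1 and LSS are among the genes below it.

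Genes of neighbouring pathways were counted in the same fit, against the same 15.2% higher and 25.1% lower among all genes. In fatty acid synthesis, the other arm of SREBP control, 5 of 17 genes tested were lower and 0 higher. SCD, the stearoyl-CoA desaturase, fell from 489 ± 114 to 175 ± 21.4 TPM (SD, n = 4 each), a log2 fold change of -1.45 with a limma adjusted p of 0.000636. ACACB changed by -1.35 (adjusted p = 0.00561). FASN, the fatty acid synthase, changed by -0.78 (adjusted p = 0.0451), a call kept in 7 of 17 alternatives. Of 23 genes for SREBP processing and sterol-regulated degradation, 8 were lower and 1 higher. The lower ones included the vesicle coat genes SEC23A (-1.30) and SEC24B (-1.27) and PAQR3 (-0.85). The PAQR3 call was lost under quantile normalization (adjusted p = 0.0635) and with the length trend removed (-0.34, adjusted p = 0.214). Of 11 genes for LXR and lipid efflux, 5 were lower and 0 higher, among them ABCA5 (-1.43) and ABCA7 (-1.04).

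In lipoprotein uptake and the lysosome, 5 of 13 were lower and 0 higher, led by the receptor LRP1 (-1.69), TMEM97 (-1.23) and the clathrin heavy chain CLTC (-0.88), which was not called with the length trend removed (-0.36, adjusted p = 0.0673). Sterol transfer and contact site genes went both ways, with 8 of 21 lower and 4 higher. OSBPL8 changed by -1.80 ± 0.47 (SE), while STARD5 (1.07) and GRAMD1B (0.99) rose. The OSBPL8 groups overlapped, with EB replicate 2 at 9.77 TPM inside the DMSO range of 6.69 to 15.1. Without that library the OSBPL8 change was -2.33. Of 14 isoprenoid branch genes, 2 were higher, the prenyl protein peptidase RCE1 (0.72) and RABGGTB (0.58), and 3 were lower, among them FNTB (-0.56), whose call held in 4 of 17 alternatives. Of 3 oxysterol and bile acid enzymes tested, SULT2B1 was higher (0.80). All of these named changes have limma adjusted p between 0.000488 and 0.0466. Without DMSO replicate 4, 11 of 17 fatty acid genes and 12 of 23 SREBP processing genes were lower, where 37.0% of all genes were. With the length trend removed, the SREBP processing genes counted 4 higher and 3 lower, and the lipoprotein uptake genes 5 higher and 3 lower, where 24.4% of all genes were higher and 21.8% lower.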

How the data were processed

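RNA was sequenced from PANC-1 cells in 4 DMSO and 4 EB libraries. Per the study's methods, reads were processed in CLC Genomics Workbench. The methods name the mouse assembly GRCm38 as the mapping reference and also hg38 as the assembly, and the submitters' processing notes list both with mm10. The values are given for human genes, so on a human annotation. Why the mouse assembly is also named, and which annotation release was used, is not settled by the sources used here. The authors deposited TPM, computed within each library, with no read counts, so depth and counting error are unknown. All gene identifiers in the table are human Ensembl identifiers, of which 20148 of 20263 matched a GENCODE release 44 symbol on hg38. Positions and lengths are from that annotation, which may differ from the authors'.

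The 11725 genes with 1 TPM or more in 4 or more libraries entered the test on log2(TPM + 1) with limma 3.58.1 in R 4.3.3 (lmFit and eBayes, no trend, no block), with Benjamini-Hochberg adjustment over all of them. Fold changes on this scale understate those of low genes. A gene was called at an adjusted p under 0.05. Ratios were compared by exact permutation over all 70 assignments of the 8 libraries, with p printed only for SREBF1 over SREBF2 and NPC2 over NPC1. The limma fit was also run on simulated data with independent noise in every gene and library. That simulation had no fixed TPM sum, no outlying library and no trend with length, so it cannot show how the fit handles them. Promoter windows are RefSeq's (GRCh38.p14). For the members the start nearest the GENCODE 5′ end was taken, and for all promoters the first listed window of each symbol. Python 3.11.15, pandas 2.3.3 and matplotlib 3.10.9 were also used.

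The members and lists were chosen with earlier results of these data known. The members named are all 30, and from each neighbouring list at most 3 genes with the largest absolute change at an adjusted p under 0.05, apart from a gene that is not reported here. Alternatives were median-ratio scaling, quantile normalization, mitochondrial genes removed, a length and GC trend removed, no filter, a minimum of 5 TPM, a pseudocount of 0.1, an intensity trend, a replicate block, a fold threshold of 1, and each library left out. The methods give 4 biological replicates per group and also speak of triplicates.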

Additional observations from a re-analysis of the deposited data

Results flagged for a closer look

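In 8 of the 60 groups of 4 libraries examined (30 genes in each treatment), 1 library lay far from the other 3 by Dixon's criterion, which chance meets in about 1 group in 20, or 3 here. DMSO replicate 4 gave 6 of the 8, always as the lowest library. It read 125 TPM for FDPS, against 170.0 to 174 in the other DMSO libraries, and 36.4 for NSDHL, against 50.2 to 52.0. DHCR7 was at 36.9 there, against 74.4 to 78.6. For SREBF2 and SCAP the values were 40.4, against 68.7 to 74.1, and 30.7, against 51.3 to 53.7. NPC2 read 238, against 303 to 310.1. This is the library with 39.0% of its TPM in mitochondrially encoded genes, and the part of that share in these values was not tested. The other two were FDFT1 in EB replicate 2, at 92.9 TPM against 75.4 to 76.4, and INSIG2 in EB replicate 4, at 3.83 against 5.13 to 5.25.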

How the results depend on the processing

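LSS, EBP, INSIG1, SREBF1 and SREBF2 kept their call and direction in all 17 alternatives run, and ABCG1 in all 16 that tested it. Members higher with EB numbered 7 of 29 instead of 4 under median-ratio scaling (24.1%, against 26.8% of all genes) and 7 with the length and GC trend removed (24.4% of all genes). Members lower numbered 14 instead of 8 with mitochondrial genes removed (48.3%, against 41.3% of all genes), and 5 at a TPM of at least 5, where 25 members could be tested (20%, against 23.3% of all genes). With an absolute log2 fold change above 1 in place of 1.5, 3 members passed (LSS, EBP and INSIG1) instead of 0. The share of all genes at that lower threshold is not given here. With 1 library left out, the higher members numbered 1 (without DMSO replicate 3) to 4 and the lower ones 6 to 12 (without DMSO replicate 4). Without DMSO replicate 3, 12% of all genes were higher and 17.7% lower. Without DMSO replicate 4, 15.6% of all genes were higher and 37% lower. A fit with the replicate number as a block called 4 higher and 11 lower (13.8% and 37.9%, against 19% and 30.1% of all genes). It kept all 12 calls and added MVK, SQLE and SCAP. Deviations of same-numbered libraries correlated with r of 0.18, 0.05, -0.09 and 0.28, and 2 of 4 DMSO libraries matched their own number best. The labels name no shared batch, so the main fit has no block. Whether the replicate numbers pair the libraries is not settled by these values. The sign turned for IDI1 with mitochondrial genes removed (-0.11), for FDFT1 under median-ratio scaling (0.048), for SC5D and NPC1 under median-ratio scaling (0.0062 and 0.10) and quantile normalization (0.21 and 0.11), and with the trend removed for FDPS (-0.029), SC5D (0.36), NPC1 (0.30) and SOAT1 (0.14). With 1 library left out, NPC1 ranged from -0.14 to 0.065, above 0 in 4 of the 8 fits. The cause of these changes was not tested. Over all genes the median log2 fold change was 0.01 under median-ratio scaling, -0.28 with mitochondrial genes removed and -0.20 without DMSO replicate 4, against -0.11, and within TPM of fixed sum no choice among these is settled by the files. Depth is unknown, which limits the low genes ABCA1, ABCG1 and MYLIP most.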
